A study of Mus musculus with 8 samples.

Results

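Complex I subunits encoded in the nucleus were examined in hippocampal tissue of mice labelled as a knockout of Dclk3, a kinase of the doublecortin-like family. The 32 genes were taken from a fixed list of subunit names, not from their values, out of 31417 genes with a row in the count table, and all 32 passed the filter on low counts. The list holds 6 core subunits and 26 supernumerary subunits, and the core and the supernumerary class were set side by side. The series held 4 libraries from Dclk3 knockout (KO) mice and 4 libraries from wild-type (WT) mice, all aged 12 months, each from the poly(A) RNA of a single hippocampus. The sources used here name neither the removed part of Dclk3 nor the cells in which it is removed, and they give no strain. Nor do they say that each library is a separate animal, so p-values measure the spread among these samples, which may be technical.

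Complex I is the largest complex of the mitochondrial respiratory chain. It takes electrons from NADH, passes them along a chain of iron-sulfur clusters to ubiquinone and pumps protons across the inner membrane. The core subunits have bacterial counterparts and carry the chemistry. Those of the matrix arm are nuclear genes, and those of the membrane arm are encoded in mitochondrial DNA. Supernumerary subunits form a shell around the core and serve assembly and stability. Ndufa4 is counted here among the supernumerary subunits by its name, although the protein is now assigned to complex IV.

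The start regions of these genes are shown first, since 2 of 5 short letter patterns searched were much more frequent there than among all genes. The other patterns, given below, lay closer to the share of all genes. RefSeq start regions of GRCm38.p6, the mm10 build, running from 250 bases before to 50 bases after the start, were found for 29 of the 32 genes. Ndufa2, Ndufb9 and Ndufs1 were not among them. The letters GCGCA, any 1 base and GCGC in a row, a form bound by nuclear respiratory factor NRF1, were searched on both strands and stood in 6 of the 29 regions (20.7%), against 4.78% of 27025 regions of all genes. The letters AAGATGGC, the form bound by YY1, stood in 7 of 29 (24.1%), against 2.88% of all. Of the 5 core genes with a region, 0 held the NRF1 letters and 1, Ndufs7, held the YY1 letters. The median GC content was 59.0% in the 29 regions, against 52.7% in all, and its part in these shares was not tested.

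The 6 stretches of 30 bases with the NRF1 letters are given on the strand of the gene. Capitals mark the match, which reads on the opposite strand in Ndufa6, Ndufa8 and Ndufs6. The Ndufb4 region held 3 such matches, of which 1 is shown.
Ndufa5, chr6:24527697-24527726, minus strand: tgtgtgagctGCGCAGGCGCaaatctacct
Ndufa6, chr15:82354249-82354278, minus strand: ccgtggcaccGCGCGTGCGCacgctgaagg
Ndufa8, chr2:36049349-36049378, minus strand: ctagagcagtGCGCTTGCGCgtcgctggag
Ndufb4, chr16:37654540-37654569, minus strand: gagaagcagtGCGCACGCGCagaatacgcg
Ndufs5, chr4:123718265-123718294, minus strand: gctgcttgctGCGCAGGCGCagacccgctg
Ndufs6, chr13:73328479-73328508, minus strand: cgactgctgtGCGCCTGCGCcggcacttgg

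The 7 stretches with the YY1 letters all carried them on the strand of the gene, between 22 and 38 bases after the start. In all 7 the ATG inside the capitals was the annotated start codon.
Ndufa3, chr7:3617384-3617413, plus strand: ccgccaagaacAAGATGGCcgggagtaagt
Ndufa9, chr6:126849097-126849126, minus strand: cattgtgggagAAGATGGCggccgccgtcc
Ndufb8, chr19:44555393-44555422, minus strand: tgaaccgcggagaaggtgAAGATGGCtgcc
Ndufc1, chr3:51408915-51408944, minus strand: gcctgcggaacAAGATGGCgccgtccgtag
Ndufs4, chr13:114388045-114388074, minus strand: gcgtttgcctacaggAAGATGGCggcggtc
Ndufs6, chr13:73328433-73328462, minus strand: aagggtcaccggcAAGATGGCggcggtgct
Ndufs7, chr10:80249462-80249491, plus strand: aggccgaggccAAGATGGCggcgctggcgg

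Ndufs6 was the 1 gene of the 29 with both patterns. Its 250 bases before the start, on the minus strand at chr13:73328483-73328732, are shown with the NRF1 letters in capitals.
Ndufs6: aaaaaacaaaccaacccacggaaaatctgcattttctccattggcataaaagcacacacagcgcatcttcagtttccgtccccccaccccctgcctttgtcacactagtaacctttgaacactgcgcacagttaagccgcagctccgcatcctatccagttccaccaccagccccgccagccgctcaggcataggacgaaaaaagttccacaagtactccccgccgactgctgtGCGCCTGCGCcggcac

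Other letter patterns were closer to the share of all genes. CCGGAAG, bound by ETS factors such as GABP, stood in 13.8% of the 29 regions, against 9.12% of all. GGGCGG, bound by SP1, stood in 44.8%, against 35.9%, and the TATA box letters TATAAA stood in 13.8%, against 14.2%. These matches describe the sequence and do not show binding.

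The libraries held 29301974 to 36552757 counts, and the lowest count of any of the 32 genes in any library was 73. Values are CPM, counts scaled to library size with TMM factors. Differences are log2 fold changes of KO over WT with their standard error (SE) from edgeR's quasi-likelihood test, adjusted by Benjamini-Hochberg over 16228 genes and called at an adjusted p under 0.05. Dclk3 stood at 8.19, 9.29, 5.92 and 7.45 CPM in KO 1 to 4, against 23.0, 39.3, 20.8 and 23.5 CPM in WT 1 to 4, a log2 fold change of -1.79 with an SE of 0.22 (adjusted p = 0.234 by edgeR, exact permutation p = 0.0286, the smallest that 4 against 4 libraries allow). DESeq2 gave it an adjusted p of 7.51e-14. Defining genes of dentate granule cells (6 of 6), CA1 pyramidal cells (5 of 5) and neurons (8 of 8) were measured above the filter. So were those of choroid plexus (7 of 7) and microglia (6 of 6), so passing the filter does not identify the tissue. The first principal component (26.7% of the variance) set WT 2 at 35.8 and KO 1 at -26.1, and choroid plexus markers summed to 185 to 3403 CPM in KO and 72.3 to 2183 CPM in WT libraries. In bulk tissue, fewer cells of a type and less RNA per cell cannot be told apart.

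No complex I subunit mRNA passed the test between KO and WT hippocampus. Fold changes of the 32 genes ran from -0.11 to 0.25 on the log2 scale, with a median of 0.043, against 0.000 over all genes tested. Of the 32 genes, 22 lay above 0 and 10 below, where 50.1% of all genes lay above 0. The edgeR test called 0 of the 32 genes and 0% of all genes tested, while DESeq2 called 5 genes, Dclk3 among them and 0 of the 32. At an unadjusted p under 0.05 there were 2 of the 32, Ndufv1 and Ndufa9, both lower in KO. That share lies near the 6.16% (1000 genes) of all genes in either direction, while 0 of the 32 were higher, against 3.96% of all genes, and 2 were lower, against 2.2%.

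**Figure D1:**
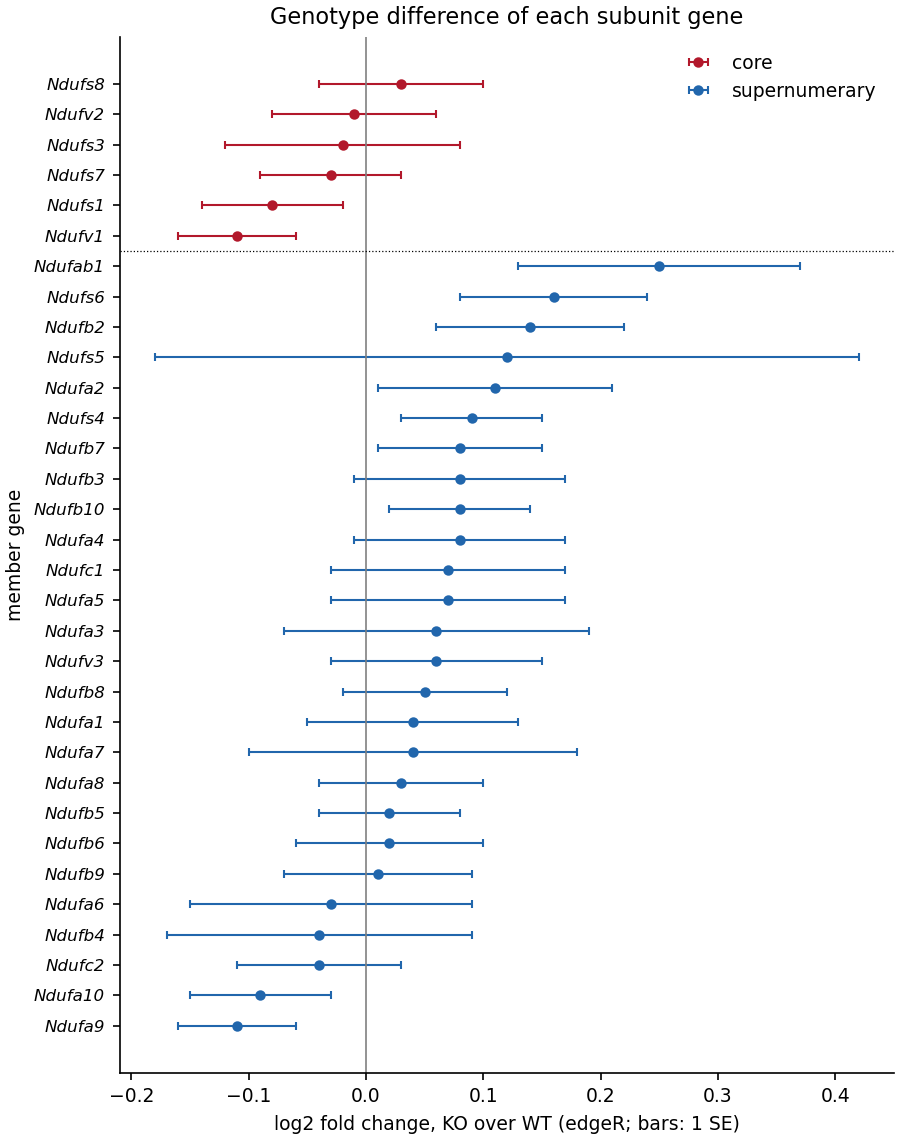
Log2 fold change of KO over WT for each of the 32 subunit genes, with bars of 1 SE from edgeR (4 KO and 4 WT libraries). Of the core genes Ndufs8 lies above 0 (with upper quartile scaling Ndufv2 and Ndufs3 do too), and 21 of 26 supernumerary genes lie above 0.

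The count above 0 rests on a single library. WT 2 held the lowest value of the 8 libraries in 19 of the 32 genes, 17 of them supernumerary, and KO 1 held the highest in 17. Without WT 2, 10 of the 32 genes lay above 0, and the median of the 32 was -0.020. The list of short housekeeping transcripts, mostly ribosomal protein mRNAs, was also lowest in WT 2. Of its 10 genes 8 were tested, and 2 of these had few counts, Fau (4 to 20 per library) and Rps27 (22 to 39). Rplp0 was not lowest in WT 2, while the other tested genes of the list were. The mean centred log2 CPM of the list was 0.150, 0.131, 0.033 and -0.080 in KO 1 to 4, against 0.151, -0.403, -0.110 and 0.128 in WT 1 to 4. The same mean over the 32 subunit genes was 0.114, 0.068, -0.000 and -0.101 in KO 1 to 4, against 0.082, -0.190, -0.000 and 0.028 in WT 1 to 4. The part of this shared pattern in the genotype values was not tested.

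**Figure D2:**
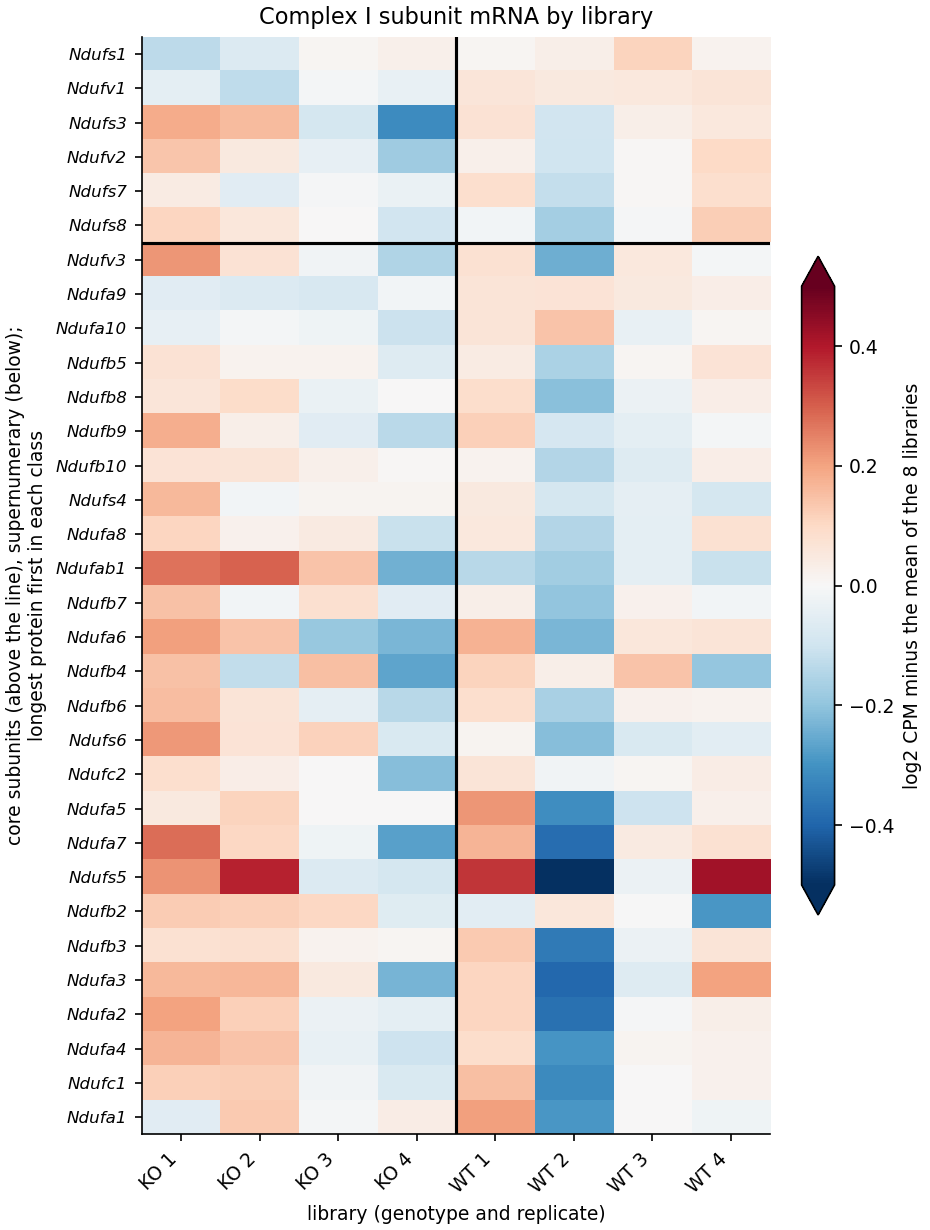
Log2 CPM of each subunit gene minus its mean over the 8 libraries, KO libraries left of WT libraries, core genes above the line and supernumerary genes below it, each ordered by protein length. WT 2 is the lowest library in 19 of 32 genes. Ndufs5 in WT 2, at 2.28 CPM, lies beyond the colour scale.

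The core subunits transfer electrons in the matrix arm. Of the 6, 5 lay below 0, a count that is 3 of 6 under upper quartile scaling, where Ndufv2 (0.008) and Ndufs3 (0.003) stood just above 0. Their median was -0.023, and 0 were called. The lowest, Ndufv1, was also the most even of the 32 genes among WT libraries.

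Ndufv1 (ENSMUSG00000037916, chr19:4007384-4012806, minus strand) encodes the flavoprotein that binds NADH and FMN, the entry point of electrons. It stood at 172, 164, 177 and 174 CPM in KO 1 to 4, against 186, 185, 185 and 187 CPM in WT 1 to 4. All 4 KO values lay under the lowest WT value. Of the 32 genes, 2 had groups that did not overlap, Ndufv1 and Ndufa9, both lower in KO, against 3.8% of all genes in either direction and 1.92% with KO lower. The mean was 172 ± 5.87 CPM in KO and 186 ± 0.904 CPM in WT (SD, n = 4 each), a log2 fold change of -0.11 (SE 0.05, edgeR unadjusted p = 0.049, adjusted p = 0.796, exact two-sided permutation p = 0.0286). The coefficient of variation among WT libraries was 0.487%, where the median over all genes tested was 9.3%. The adjusted p stayed between 0.466 and 0.997 with each library left out in turn.

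Ndufs1 (ENSMUSG00000025968, chr1:63143596-63176833, minus strand) encodes the largest subunit of the matrix arm, which holds several iron-sulfur clusters. It stood at 145, 151, 160.0 and 162 CPM in KO 1 to 4, against 159.8, 162, 172 and 161 CPM in WT 1 to 4. KO 1 and KO 2 were low, while KO 3 and KO 4 lay within the range of WT, so the groups overlapped. The log2 fold change was -0.08 with an SE of 0.06 (edgeR adjusted p = 0.809), -0.050 without KO 1 and -0.053 without WT 3. Its exons overlap Ino80dos on the opposite strand, and the sources used here do not say whether reads were counted by strand.

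The other 4 core subunits had larger differences within a group than between the groups. Ndufv2, an iron-sulfur protein beside Ndufv1, stood at 103, 96.8, 90.8 and 82.8 CPM in KO 1 to 4, against 95.1, 87.2, 93.8 and 100.3 CPM in WT 1 to 4 (log2 fold change -0.01, SE 0.07). Ndufs3, a subunit of the module that binds quinone, stood at 37.03, 36.4, 30.7 and 26.2 CPM in KO 1 to 4, against 34.3, 30.5, 33.2 and 33.9 CPM in WT 1 to 4 (-0.02, SE 0.1). In both, KO 1 was the highest and KO 4 the lowest library of all 8. Ndufs7, which holds the last iron-sulfur cluster before ubiquinone, stood at 68.4, 64.0, 66.3 and 65.0 CPM in KO 1 to 4, against 70.5, 61.2, 66.7 and 70.4 CPM in WT 1 to 4 (-0.03, SE 0.06). Ndufs8, an iron-sulfur protein that feeds Ndufs7, stood at 71.9, 69.4, 66.7 and 62.5 CPM in KO 1 to 4, against 66.1, 59.3, 66.5 and 72.7 CPM in WT 1 to 4 (0.03, SE 0.07). WT 2 was the lowest library for both Ndufs7 and Ndufs8, and without it the fold change of Ndufs8 was -0.014. The edgeR adjusted p of these 4 genes lay between 0.942 and 0.983.

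Of the 26 supernumerary subunits 21 lay above 0 under TMM, DESeq2 and upper quartile scaling alike, and the median with TMM scaling was 0.064. Without WT 2 the count was 10 of 26 and the median -0.009. None of the 26 was called, and Ndufa9 alone had an unadjusted p under 0.05.

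Ndufab1 (ENSMUSG00000030869, chr7:122085403-122101886, minus strand), the mitochondrial acyl carrier protein, which also serves fatty acid and iron-sulfur cluster synthesis, had the highest fold change. It stood at 10.8, 10.98, 9.86 and 7.55 CPM in KO 1 to 4, against 8.1, 7.92, 8.64 and 8.27 CPM in WT 1 to 4. KO 1 to KO 3 lay above every WT library, and KO 4 lay below every WT library. This gave a log2 fold change of 0.25 with an SE of 0.12 (edgeR adjusted p = 0.796, exact permutation p = 0.143), and one of 0.355 without KO 4.

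Ndufs6 (ENSMUSG00000021606), a zinc-binding subunit needed late in assembly of the matrix arm, stood at 30.4, 27.5, 28.4 and 24.9 CPM in KO 1 to 4, against 26.5, 22.6, 24.9 and 25.3 CPM in WT 1 to 4. KO 4 alone of the KO libraries lay within the WT range. Its log2 fold change came to 0.16 with an SE of 0.08 (edgeR adjusted p = 0.796). This is the gene whose start region held both letter patterns above.

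Ndufb2, a small subunit of the distal membrane arm, stood at 30.0, 29.8, 29.5 and 26.3 CPM in KO 1 to 4, against 26.5, 28.6, 27.5 and 22.4 CPM in WT 1 to 4 (log2 fold change 0.14, SE 0.08, edgeR adjusted p = 0.797). WT 4, not WT 2, was its lowest library, and without WT 4 its fold change was 0.071. Ndufs4, a matrix arm subunit whose loss in mice causes a fatal encephalopathy resembling Leigh syndrome, stood at 61.1, 54.1, 55.1 and 55.1 CPM in KO 1 to 4, against 56.4, 51.4, 53.0 and 51.3 CPM in WT 1 to 4 (0.09, SE 0.06, edgeR adjusted p = 0.805), and its fold change without KO 1 was 0.051. The groups overlapped in both genes.

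Ndufa9 (ENSMUSG00000000399, chr6:126821721-126849136, minus strand), which binds NADPH near the junction of the arms, was lower in every KO library than in any WT library. It stood at 102, 101, 100.2 and 105 CPM in KO 1 to 4, against 111, 111, 109.6 and 108 CPM in WT 1 to 4. The log2 fold change was -0.11 (SE 0.05, edgeR unadjusted p = 0.0408, adjusted p = 0.796, exact permutation p = 0.0286). With each library left out in turn it lay between -0.124 and -0.101, with adjusted p between 0.427 and 0.997.

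Ndufa10, a subunit with a nucleoside kinase fold, stood at 124, 127, 126 and 119 CPM in KO 1 to 4, against 134, 141, 124 and 129 CPM in WT 1 to 4 (log2 fold change -0.09, SE 0.06, edgeR adjusted p = 0.797). WT 2 was its highest library, opposite to most supernumerary genes, and without WT 2 its fold change was -0.055. Ndufc2, of the proximal membrane arm, stood at 65.9, 63.6, 62.1 and 53.7 CPM in KO 1 to 4, against 65.0, 61.5, 62.6 and 63.7 CPM in WT 1 to 4 (-0.04, SE 0.07). Ndufb4, of the distal membrane arm, stood at 8.35, 6.91, 8.37 and 6.27 CPM in KO 1 to 4, against 8.15, 7.7, 8.32 and 6.58 CPM in WT 1 to 4 (-0.04, SE 0.13). Without KO 4 both had fold changes above 0, at 0.014 for Ndufc2 and 0.034 for Ndufb4.

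**Figure D3:**
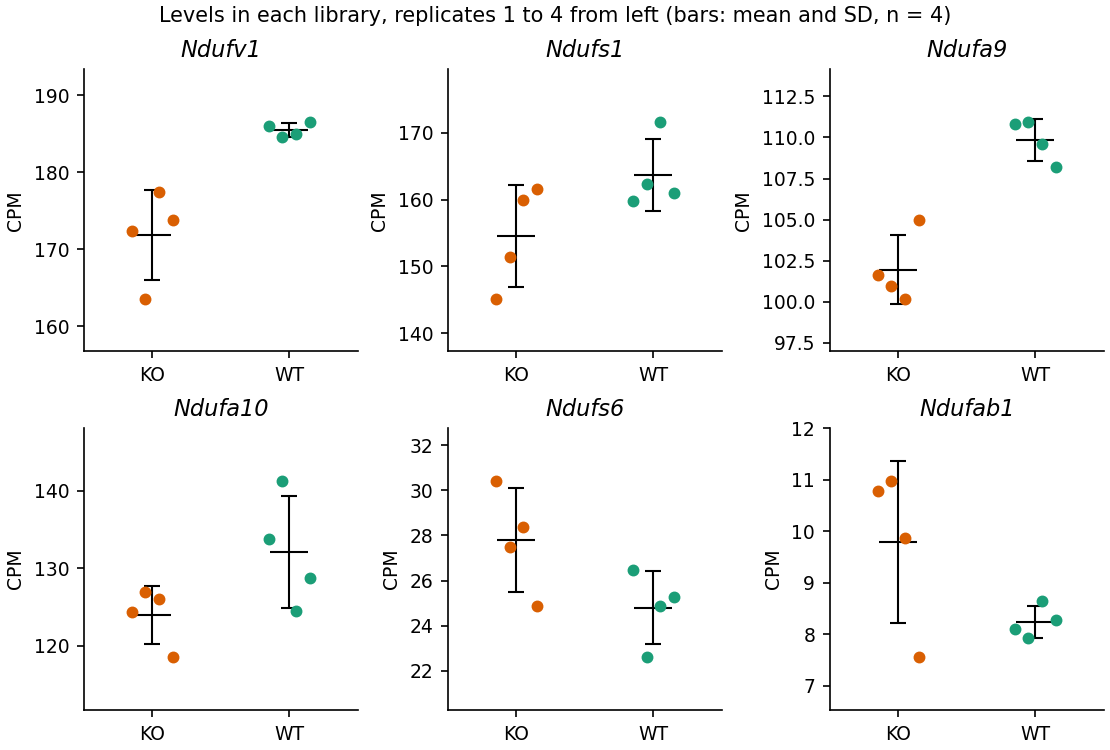
CPM in each library for 6 subunit genes, KO left of WT, with replicates 1 to 4 from left in each group and bars for the mean and SD (n = 4 each). The vertical axes do not start at 0. The groups do not overlap for Ndufv1 and Ndufa9 and overlap for the other 4 genes.

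The other supernumerary genes lay between -0.03 and 0.12, and their groups overlapped. Ndufs5, an intermembrane space protein, had the highest of these at 0.12 with an SE of 0.3. It stood at 6.2, 6.94, 5.05 and 4.99 CPM in KO 1 to 4, against 6.82, 2.28, 5.2 and 7.12 CPM in WT 1 to 4, and its coefficient of variation among WT libraries, 41.4%, was the highest of the 32 genes. Ndufs5 has a near-identical processed pseudogene, BC002163, whose own counts came to 13.4% of those of Ndufs5, so its level is uncertain. Ndufab1, Ndufb3, Ndufb4 and Ndufs3 also have near-identical pseudogene copies. Those of Ndufab1 and Ndufs3 had counts of at most 0.178% of the gene's, and those of Ndufb3 and Ndufb4 were not analysed here. The sources used here do not say how reads shared with a copy were counted, so these levels are uncertain as well. Ndufa2 had a fold change of 0.11 (SE 0.1), and Ndufa4, Ndufb3, Ndufb7 and Ndufb10 each had 0.08. Ndufa6, which binds an acyl carrier protein in the matrix arm, had -0.03 (SE 0.12).

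The core class stood lower than the supernumerary class in KO relative to WT, by a difference of medians of -0.088 on the log2 scale. With each library left out in turn this difference lay between -0.112 and -0.050, the last without WT 2. Core mRNAs summed to 598, 582, 592 and 572 CPM in KO 1 to 4, against 612, 585, 617 and 625 CPM in WT 1 to 4. Supernumerary mRNAs summed to 1640.4, 1586, 1511 and 1431 CPM in KO 1 to 4, against 1613, 1370.0, 1508 and 1547 CPM in WT 1 to 4. The ratio of the supernumerary to the core sum was 2.74, 2.73, 2.55 and 2.50 in KO 1 to 4, against 2.64, 2.34, 2.44 and 2.48 in WT 1 to 4. It averaged 2.63 ± 0.122 in KO and 2.47 ± 0.122 in WT (SD, n = 4 each), and the groups overlapped, since WT 1 lay above KO 3 and KO 4.

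By place in the complex, the distal membrane arm had 9 of 10 genes above 0 (median 0.067), the proximal membrane arm 5 of 7 (0.042) and the matrix arm 7 of 14 (0.010). Without WT 2 these counts were 5 of 10 (-0.004), 0 of 7 (-0.038) and 4 of 14 (-0.047). The matrix arm is the place of all 6 core genes. Summed levels of the distal arm were 590.2, 564, 547 and 521 CPM in KO 1 to 4, against 568, 491, 537 and 546 CPM in WT 1 to 4, which overlap.

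Core subunits are longer proteins than most supernumerary ones, so the fold changes were set beside protein length. A border at 350 residues of the longest annotated protein was chosen after the values were seen, and no test was made. The 5 genes at or above it are Ndufs1 (727 residues), Ndufv3 (468), Ndufv1 (464), Ndufa9 (377) and Ndufa10 (355). Of these, 1 lay above 0, Ndufv3, and the median was -0.092. Of the 27 shorter genes, 21 lay above 0, with a median of 0.054. Without WT 2 the count was 9 of 27 with a median of -0.014, while the long genes had 1 of 5 above 0 and a median of -0.084. Summed CPM of the 5 long genes was 606, 599, 617 and 607 in KO 1 to 4, against 647, 644, 646 and 638 in WT 1 to 4.

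Class and length were not the same division. Among genes under 350 residues, 1 of 4 core genes (median -0.015) and 20 of 23 supernumerary genes (0.066) lay above 0. Without WT 2 these were 0 of 4 (-0.047) and 9 of 23 (-0.009). Among all tested coding genes a gradient of the same direction was present: 53.5% of 4680 genes under 350 residues lay above 0 (median 0.010), and 45.3% of 9767 genes at or above it (median -0.014). For proteins under 150 residues the share was 63.0% of 875 genes with a median of 0.036. The subunit genes there had 13 of 16 and 0.068, or 5 of 16 and -0.020 without WT 2. The values over all coding genes include WT 2 and are not given without it. The mean centred log2 CPM of the 875 genes was 0.118, 0.074, -0.011 and -0.074 in KO 1 to 4. In WT 1 to 4 it was 0.041, -0.100, 0.018 and -0.066.

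**Figure D4:**
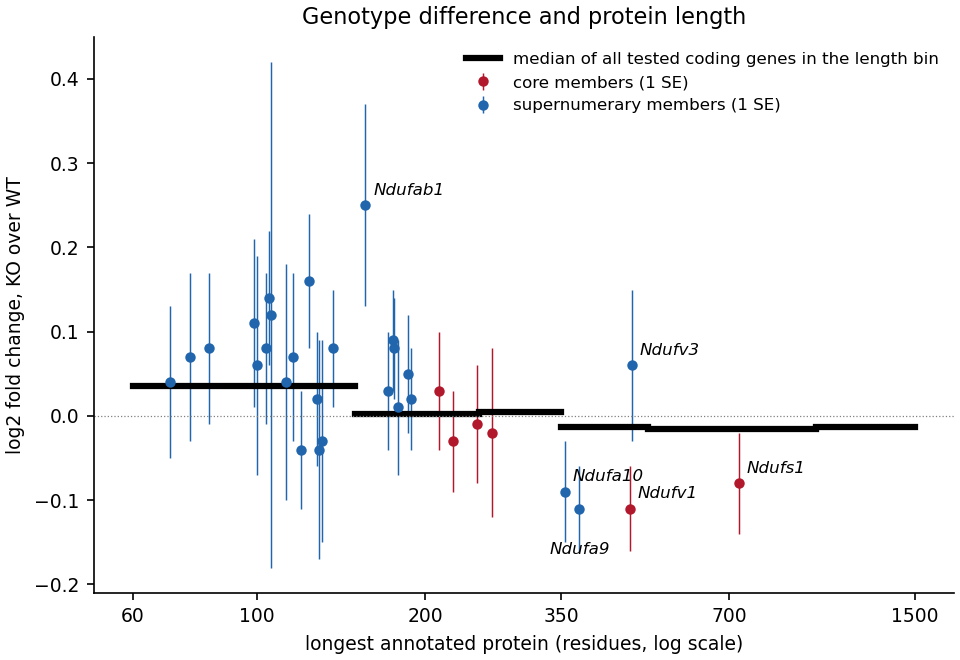
Log2 fold change of KO over WT against the length of the longest annotated protein in residues (log axis) for the 32 subunit genes, with bars of 1 SE, and black lines for the median of all tested coding genes in each length bin. Long subunits lie below 0 except Ndufv3 at 0.06, and the medians of all coding genes fall within 0.036 and -0.016.

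Most subunit mRNAs varied together from library to library. After removing group means, the median correlation between pairs of the 32 genes over the 8 libraries was 0.63, given as a description, since the genes share libraries and depth. It was 0.33 between core genes, 0.69 between supernumerary genes, 0.75 between genes under 350 residues, -0.19 between genes of 350 residues or more and -0.22 between a long and a short gene. With the mean of the other subunits, Ndufa7 had 0.99 and Ndufa4 0.98, while Ndufs1 had -0.53, Ndufa9 -0.52, Ndufa10 -0.23, Ndufv1 -0.18 and Ndufb2 -0.11. Of the 5 long genes, Ndufs1, Ndufa9, Ndufa10 and Ndufv1 did not follow the library pattern of the rest, in which WT 2 was low. Ndufv3 followed it, with 0.95, and the short gene Ndufb2 did not. A low value in WT 2 raises the fold change of a gene, so the sign and the library pattern are not independent.

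**Figure D5:**
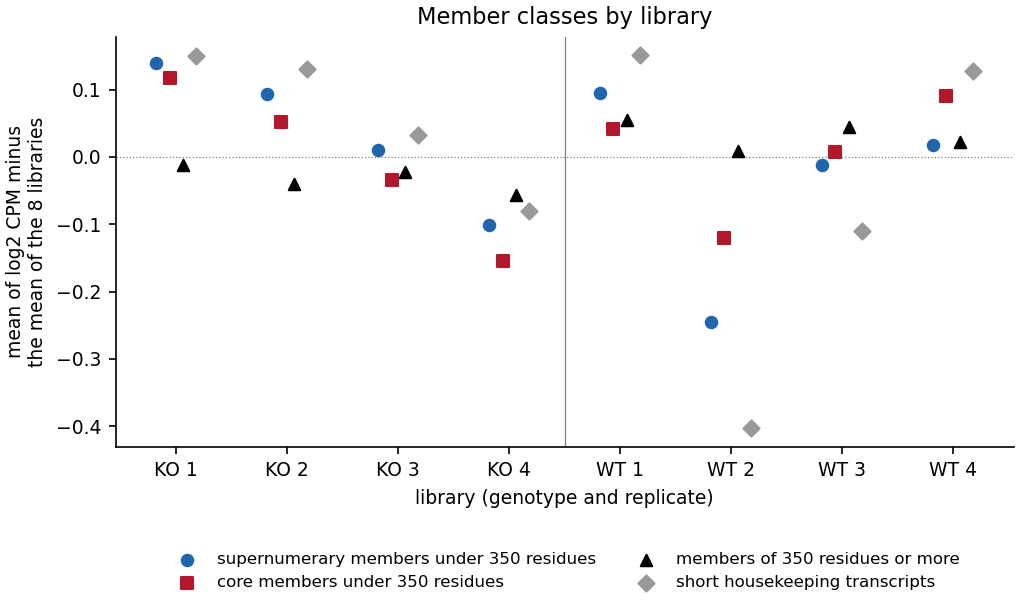
Mean over genes of log2 CPM minus the mean of the 8 libraries, for short supernumerary, short core and long subunit genes and for the short housekeeping list, KO libraries left of WT libraries. WT 2 is lowest for the short supernumerary genes and at -0.403 for the housekeeping list. The mean of the 5 long genes lies below 0 in all 4 KO libraries and above 0 in all 4 WT libraries. Their border at 350 residues was chosen after the values were seen, so this split is not independent of that choice. Single genes differ, such as Ndufv3 at 0.221 in KO 1 and -0.244 in WT 2.

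The median coefficient of variation of the 32 genes was 6.69% in KO and 7.15% in WT, against 10.4% in KO and 9.3% in WT over all genes tested.

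Levels per kilobase of exon differed more between subunits than between genotypes. With the union of exons as length, Ndufb9, a distal arm subunit, had the highest at 119.7 CPM per kb in KO and 118 in WT, and Ndufab1 the lowest at 1.42 in KO and 1.2 in WT. The level of Ndufab1 is uncertain, since it has near-identical copies and the handling of shared reads is not given. Ndufb9 stood at 139, 125, 118 and 112 CPM in KO 1 to 4, against 133, 116, 119 and 122 CPM in WT 1 to 4 (log2 fold change 0.01, SE 0.08). Its exons and those of Ndufb2 and Ndufb8 overlap another gene on the same strand, so reads there may be split between the genes. Among core genes Ndufv1 was highest, at 65.2 CPM per kb in KO and 70.4 in WT, and Ndufs3 lowest, at 14.95 in KO and 15.15 in WT. The median was 40.9 in KO and 41.5 in WT for core genes, against 34.1 in KO and 33.4 in WT for supernumerary genes. With the length of the transcript that holds the longest coding sequence, an alternative chosen after the data were seen, Ndufa4 was the highest at 257 in KO and 242 in WT, and the classes changed order, with core genes at 62.6 in KO and 63.7 in WT and supernumerary genes at 70.3 in KO and 71.0 in WT.

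The mitochondrial genes for complex I subunits, which form the proton-pumping core of the membrane arm, lay above 0 in 5 of 5 tested, with a median of 0.137. mt-Nd2 stood at 4505, 4161, 4912 and 4597 CPM in KO 1 to 4, against 4417, 3898, 3759 and 4056 CPM in WT 1 to 4 (log2 fold change 0.17, SE 0.08, edgeR unadjusted p = 0.0453, adjusted p = 0.796). KO 2 lay within the WT range. mt-Nd4 had 0.15 (SE 0.07), mt-Nd1 0.14 (SE 0.07), mt-Nd5 0.1 (SE 0.06) and mt-Nd6 0.04 (SE 0.11). All mitochondrial genes together took 3.92% to 4.41% of counts in KO libraries and 3.58% to 3.90% in WT libraries. mt-Nd3 was not analysed here, and mt-Nd4l had 1 count in all libraries together.

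Of supernumerary subunits outside the list of 32, Ndufb11 had a log2 fold change of 0.10 (SE 0.06) and Ndufa11 one of 0.03 (SE 0.07). Of 18 assembly factors 10 lay above 0 and 8 below, with a median of 0.006. Foxred1, an oxidoreductase needed for assembly, stood at 32.1, 32.2, 28.7 and 28.9 CPM in KO 1 to 4, against 27.7, 26.7, 28.4 and 26.5 CPM in WT 1 to 4. All 4 KO values lay over the highest WT value, as in 1.88% of all genes, and the log2 fold change was 0.16 (SE 0.06, edgeR unadjusted p = 0.0303, adjusted p = 0.796).

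Regulators of mitochondrial gene expression had 4 of 12 genes above 0 and a median of -0.036, and 0 were called. Gabpb2, a partner of the ETS factor Gabpa, stood at 29.2, 28.1, 26.1 and 26.2 CPM in KO 1 to 4, against 22.9, 21.0, 23.0 and 21.0 CPM in WT 1 to 4. Its groups did not overlap, and the log2 fold change was 0.32 (SE 0.07, edgeR unadjusted p = 0.000617, adjusted p = 0.796). The coactivator gene Pprc1 had -0.19 (SE 0.1) and Ppargc1a -0.08 (SE 0.07). Nuclear genes for complexes II to V had 23 of 38 above 0 and a median of 0.036, close to the 0.043 of the complex I subunits. Among them Atp5l and Atp5e, small subunits of ATP synthase, had 0.50 (SE 0.21) and 0.17 (SE 0.08), and Uqcrh of complex III had 0.14 (SE 0.06). Atp5l had only 50 to 109 counts per library. The groups overlapped in Atp5l, Atp5e and Uqcrh. The groups did not overlap in 3 of the 38, all lower in KO, against 1.92% of all genes with KO lower, and in 0 of the 38 with KO higher. These were Uqcrc1 of complex III (-0.12, SE 0.06), Atp5a1 of ATP synthase (-0.12, SE 0.06) and Sdhb of complex II (-0.08, SE 0.05), named after their values were seen, each with an edgeR adjusted p of 0.796.

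Of the marker genes of cell types 0 were called, while the medians of several lists lay farther from 0 than the 0.043 of the 32 subunits. Neuronal markers had 0 of 8 above 0 (median -0.074) and CA1 markers 0 of 5 (-0.158), while dentate granule cell markers had 6 of 6 (0.184) and oligodendrocyte markers 6 of 6 (0.158) above 0. Choroid plexus markers had 6 of 7 above 0 (0.372), astrocyte markers 4 of 6 (0.052), microglial markers 6 of 6 (0.049) and endothelial markers 4 of 4 (0.059). These values include WT 2, which stood apart in some markers. Gfap (log2 fold change -0.61, SE 0.46) stood at 1805 CPM in WT 2. It stood at 567, 469 and 442 CPM in WT 1, 3 and 4 and at 500 to 578 CPM in KO libraries. The mean centred log2 CPM of dentate markers was -0.460 in WT 2, against -0.189 to 0.189 in the other libraries. In WT 2 that of neuronal markers was 0.011 and that of CA1 markers 0.017. The part of the marker differences in the subunit values was not tested.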

How the data were processed

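Poly(A) RNA of 8 libraries (4 KO, 4 WT) was analysed from whole-number counts, which the authors deposited as raw values with Ensembl gene IDs and 1 column per library; 0 columns of per-sample values were left unused. The tool bcl2fastq 2.17.1.14 and build mm10 are named per the submitters' processing notes; libraries were strand-specific, per the labels' protocols. Aligner, counter and strand setting: not given in the sources used here. Totals per library were 29301974 to 36552757 counts.

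KO was compared with WT over the whole table by edgeR 4.0.16 in R 4.3.3 (TMM scaling, filterByExpr, robust quasi-likelihood F test, Benjamini-Hochberg adjustment over 16228 genes). Each SE is the log2 fold change over the root of F, without its sign. The code was tested on simulated counts. Scores are means of log2 CPM with a prior count of 2, centred on the 8 libraries. Single genes were also compared by exact two-sided permutation over the 8 libraries. Lengths and exon overlaps came from GENCODE annotation of mm10, and near copies from BLAST 2.17.0. Alternatives were DESeq2 1.42.0, edgeR with DESeq2 size factors or with upper quartile factors, a fit with no filter, a filter of 1 CPM in 4 libraries, a replicate block, and each library left out.

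The subunits, lists and tests were chosen with earlier results of these data known. Values in every library are given for the 6 core genes and for supernumerary genes among the 4 lowest p in each direction or with an extreme level per kilobase. They are also given for Dclk3, mt-Nd2, Foxred1 and Gabpb2. Other named genes of the further lists, mostly those with the lowest p, have a fold change and SE only or a part of their values. Ndufs5, and Gfap among the markers, were added after their values were seen.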

Additional observations from a re-analysis of the deposited data

Results flagged for a closer look

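The highest or lowest of 4 libraries was tested against the gap to the others (Dixon's 95% criterion) in 70 groups, and 2 stood apart, where chance flags about 1 in 20 groups. Ndufb2 was at 26.3 CPM in KO 4, below 30.0, 29.8 and 29.5 CPM in the other KO libraries. Ndufs4 was at 61.1 CPM in KO 1, above 54.1, 55.1 and 55.1 CPM in the other KO libraries. Over all subunit genes, KO 1 was the highest of the 8 libraries in 17 of 32 genes, and KO 4 the lowest in 8.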

How the results depend on the processing

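No gene passed the adjusted threshold with edgeR, against 5 with DESeq2, 1 with the replicate block and 0 to 1 with each library left out. The number of subunit genes at an unadjusted p under 0.05, 2 as reported, was 0 with upper quartile factors, 0 without a filter, 1 with the filter of 1 CPM in 4 libraries, 0 with the replicate block and 0 to 3 with each library left out, 3 without KO 4. Genes at an unadjusted p under 0.05 numbered 1000 in all, 556 without WT 4, 640 without KO 2 and 1777 without KO 4. Of the 32 genes, 10 lay above 0 without WT 2, against 22 with it, 0 core genes among them, and 10 to 27 over all leave-outs (supernumerary 10 to 24, core 0 to 3). Core genes above 0 numbered 3 with upper quartile factors. The core median was 0.009 without KO 4. Signs turned for Ndufv2 (0.008) and Ndufs3 (0.003) with upper quartile factors. They also turned in some leave-outs for Ndufv2 (-0.057 to 0.040), Ndufs3 (-0.081 to 0.072), Ndufs8 (-0.014 to 0.080), Ndufc2 (-0.075 to 0.014), Ndufb4 (-0.109 to 0.034) and Ndufb9 (-0.043 to 0.058). The cause was not tested. Without Ndufa4 the median was 0.042 and the class difference -0.087. Levels per kilobase over the 8 libraries were 41.2 for core and 33.9 for supernumerary genes with the union of exons. With the longest transcript they were 63.2 and 50.5, and with the transcript of the longest coding sequence 63.2 and 72.0.

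Same-numbered KO and WT libraries deviated together with r of 0.139, 0.116, -0.219 and -0.014. Libraries with different numbers had r between -0.298 and 0.193. No pairing by number is apparent, but so few libraries cannot decide whether the numbers pair the samples. The block gave medians of 0.047 for the 32 genes, -0.028 for core and 0.068 for supernumerary genes, a difference of -0.096, and changed no call of a subunit gene. The lowest count of the 32 genes was 73, for Ndufs5 in WT 2, a library of 32531464 counts. The cause of that low value was not tested.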
